A study of Rattus norvegicus with 12 samples.

Results

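The comparison described here sets corticosterone (COR) against cortivazol (CVZ) in primary ventricular cardiomyocytes from neonatal Wistar rats. The arrays were chosen by their titles, COR and CVZ without RU486 in each of 2 experiments, which gave 4 of the 12 arrays of the series, 2 per ligand. COR minus CVZ was taken within each experiment, and a gene was kept when it passed the test and differed in the same direction in both experiments. This held for 180 of the 18625 probe sets tested (a probe set is the group of array probes that measures one transcript), and for 123 of 10082 named genes when each gene was taken by its brightest probe set.

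Cells from 1-day-old animals were separated from fibroblasts by differential adhesion, kept for 24 h in the reduced-serum medium OPTI-MEM, and exposed to ligand for 3 h. The groups used were COR (n = 2), CVZ (n = 2) and ethanol vehicle (n = 2), with 1 array of each in each experiment, and COR plus RU486 and CVZ plus RU486 (1 array each, the second experiment only, after pretreatment with 10 µM RU486). The aldosterone (ALD) arrays and the array with RU486 and no ligand entered the fit without being compared here. The ligand doses are not stated in the labels, so whether COR and CVZ were given at matched doses is not known, and a difference between them is a difference between these treatments as given.

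Glucocorticoids act through the glucocorticoid receptor (GR), a transcription factor held by chaperones in the cytoplasm until a ligand binds. The bound receptor enters the nucleus, raises one set of genes through binding sites on DNA, and lowers many inflammatory genes whose expression depends on NF-kappaB and AP-1. Corticosterone is the main natural glucocorticoid of the rat and also binds the mineralocorticoid receptor. Cortivazol is a synthetic glucocorticoid that carries a phenylpyrazole group fused to the A ring of the steroid, and RU486 is an antagonist of GR.

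Signals are given as multiples of the median of their array, so the median probe set of every array is 1. The medians before that division are not given and were inferred from the spacing of the deposited values. They were 25.5 and 28.7 on the COR arrays, against 21.1 and 22.4 on the CVZ arrays and 22.7 and 23.8 on the vehicle arrays. By these medians the COR arrays were the brightest of the 3 groups in both experiments, and the part of this in the results was not tested. The median COR minus CVZ over all probe sets tested was a log2 difference of 0.0024, and it was 0.0153 after quantile normalization and 0.0222 after trimmed-mean scaling. All 18 cardiomyocyte markers were measured, none below a signal of 11.1 on any COR or CVZ array, and their summed signal was 3373 and 3368 under COR, 3694 and 3641 under CVZ, and 3559 and 3273 under vehicle.

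COR and CVZ differed at 180 probe sets, 0.966% of those tested (limma, Benjamini-Hochberg adjusted p below 0.05). Of these, 58 were higher with COR (0.311%) and 122 were lower with COR (0.655%), and all 180 had the same sign in both experiments. The 58 had a median log2 difference of 0.72 (0.69 and 0.76 in the first and second experiment) and comprised 45 named genes. The 122 had a median of −0.75 (−0.73 and −0.82) and comprised 92 named genes. Of the 123 genes, 37 were higher and 86 lower.

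These calls rest on the pairing of arrays within an experiment and on error estimates shared across probe sets. Without the experiment as a block 0 probe sets were called in limma (433 at an unadjusted p below 0.05), and without the mean-variance trend 0 were called (1587 unadjusted), against 1793 unadjusted in the fit reported. Leaving out COR 2, COR 1, CVZ 2 or CVZ 1 left 24, 59, 81 and 112 calls. The call of 11 genes held whichever COR or CVZ array was left out: Ccl2, Ccl7 and Irx4 on the side higher with COR, and Ptgs2, Slc7a6, Rhob, Abra, Tcap, Rgs2, Egr1 and B3galnt1 on the other. The other 112 genes lost the call in at least 1 of these fits. The call was lost in all 4 fits by 52 genes. Those named in the text are Gja5, Ier3, Insig1, Prox1, Tbc1d10c and Zfp395 on the side higher with COR, and Fkbp5, Klf15, Bcl6, Cdkn1a, Tiparp, Tgm2, Adamts1, Thbd, F3, Slc7a5, Ptgds, Etl4, Nhsl2, Gpcpd1 and Relt on the other.

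A count that uses no shared variance gave 34 probe sets at least 2-fold higher with COR in each experiment (0.183%) and 40 at least 2-fold lower in each (0.215%). In comparison, 30 (0.161%) were at least 2-fold apart in opposite directions in the 2 experiments. The COR and CVZ signals did not overlap for 45 of the 58 probe sets called higher and 107 of the 122 called lower, where 11.1% and 11.2% of all probe sets tested did not overlap in those directions. The calls were made on these same signals, so the lack of overlap and the shared sign in both experiments follow in part from the selection. Just inside the threshold lay Etl4 (adjusted p = 0.0465) and Ptgds (adjusted p = 0.0474), and just outside it Errfi1 and Ccn2 (adjusted p = 0.0531 for each).

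**Figure D1:**
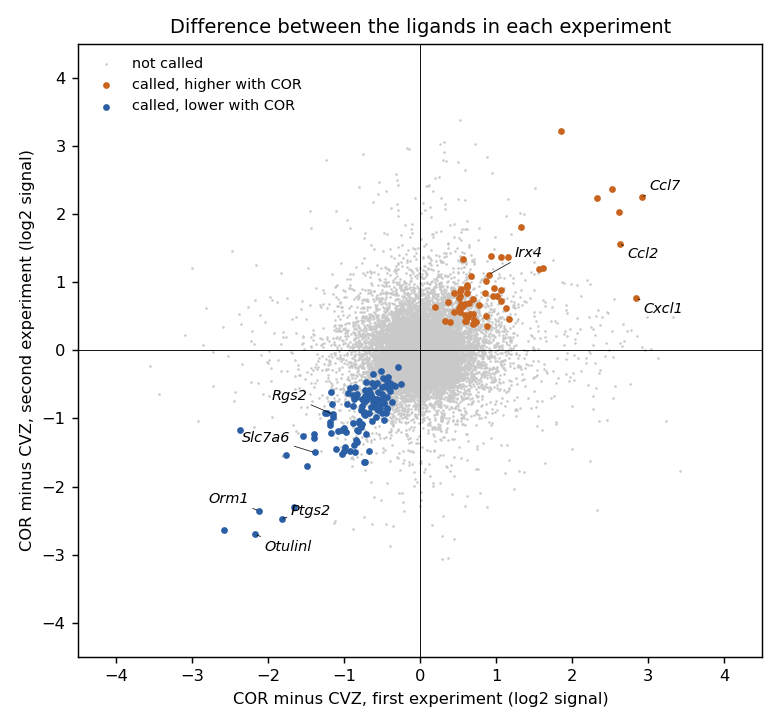
COR minus CVZ of each of the 18625 probe sets tested (grey), in log2 signal, in the first experiment (horizontal axis) and the second (vertical axis). The 58 called higher with COR (orange) lie in the upper right and the 122 called lower (blue) in the lower left, while many uncalled probe sets with large differences in 1 experiment lie near 0 in the other.

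Chemokines were among the largest differences on the side higher with COR. Ccl2 and Ccl7, which attract monocytes, and Cxcl1, which attracts neutrophils, were 4.27-fold, 5.99-fold and 3.49-fold higher under COR than under CVZ in the fit. Of the 16 chemokines and cytokines tested, 3 were higher with COR, 0 lower and 13 not called, with a list median of 0.20 on the log2 scale against 0.0024 for all probe sets. Higher calls made up 0.311% of all probe sets. Promoter sequences are shown for 2 of these chemokines and for Orm1 and Ptgs2, genes of inflammation with large differences in the other direction, because sites of NF-kappaB, AP-1 and the receptor can lie in such windows. Each is 300 bases, 250 before to 50 after the gene's start, from RefSeq on build GRCr8, read 5′ to 3′ on the gene's strand, and capitals mark any match to the motifs searched. Ccl7 lies at chr10:67513845-67514144 (plus strand), Cxcl1 at chr14:17479272-17479571 (minus strand), Orm1 at chr5:81788259-81788558 (plus strand) and Ptgs2 at chr13:64713813-64714112 (plus strand).
Ccl7: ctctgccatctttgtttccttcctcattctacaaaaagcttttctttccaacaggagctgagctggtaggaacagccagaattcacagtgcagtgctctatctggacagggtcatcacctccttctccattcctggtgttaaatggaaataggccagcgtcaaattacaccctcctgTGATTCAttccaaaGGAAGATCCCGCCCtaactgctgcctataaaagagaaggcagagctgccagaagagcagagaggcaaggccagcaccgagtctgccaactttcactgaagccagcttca
Cxcl1: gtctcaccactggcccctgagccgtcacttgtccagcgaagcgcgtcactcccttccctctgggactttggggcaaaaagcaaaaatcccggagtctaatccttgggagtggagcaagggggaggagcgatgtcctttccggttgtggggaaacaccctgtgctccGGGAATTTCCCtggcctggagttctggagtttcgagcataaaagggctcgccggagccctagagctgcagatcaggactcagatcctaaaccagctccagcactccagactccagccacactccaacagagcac
Orm1: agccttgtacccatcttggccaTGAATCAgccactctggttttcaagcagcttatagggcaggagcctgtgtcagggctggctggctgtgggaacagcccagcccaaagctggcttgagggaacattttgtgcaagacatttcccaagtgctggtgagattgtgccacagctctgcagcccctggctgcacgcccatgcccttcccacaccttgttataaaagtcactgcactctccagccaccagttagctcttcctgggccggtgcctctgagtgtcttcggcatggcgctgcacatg
Ptgs2: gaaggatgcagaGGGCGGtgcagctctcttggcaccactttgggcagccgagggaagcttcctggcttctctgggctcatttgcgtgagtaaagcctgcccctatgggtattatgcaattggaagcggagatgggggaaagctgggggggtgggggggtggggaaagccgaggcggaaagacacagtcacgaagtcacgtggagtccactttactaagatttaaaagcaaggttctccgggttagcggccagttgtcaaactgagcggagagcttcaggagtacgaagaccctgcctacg

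Both strands were searched for TGTTCT (a half-site of the receptor's element), the NF-kappaB motif (10 bases, whose 2 overlapping matches are the capitals in Cxcl1), TGANTCA (an AP-1 site) and GGGCGG (an Sp1 site). The Ccl7 window held the NF-kappaB motif on the minus strand 59 to 50 bases before the start, TGANTCA 73 to 67 bases before it, and GGGCGG on the minus strand at 51 to 46, overlapping the first. The Cxcl1 window held the NF-kappaB motif on both strands in overlapping positions 84 to 74 bases before the start. The Orm1 window held TGANTCA 228 to 222 bases before the start, and the Ptgs2 window held GGGCGG 238 to 233 bases before it. None of the 4 windows held TGTTCT. Over 33469 RefSeq rat promoters of the same length, a match was present in 1.3% for the NF-kappaB motif, 7.33% for TGANTCA, 33.1% for GGGCGG and 20.7% for TGTTCT.

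Ccl2 had signals of 41.2 and 7.12 under COR, 6.64 and 2.36 under CVZ, and 45.2 and 16.3 under vehicle, giving the first experiment before the second. Within each experiment COR stood below vehicle and CVZ below both. The fitted COR minus CVZ was 2.09 ± 0.19 on the log2 scale (SE, 4.27-fold, adjusted p = 0.000253). Ccl7 had signals of 5.13 and 0.857 under COR, 0.621 and 0.125 under CVZ, and 4.67 and 1.87 under vehicle. COR was above vehicle in the first experiment and below it in the second, CVZ was the lowest in both, the ligands did not overlap, and the fitted difference was 2.58 ± 0.31 (5.99-fold, adjusted p = 0.000937). The filter level of 0.63 includes the pseudocount of 0.0696. The CVZ signal of Ccl7 was close to that level in the first experiment and under it in the second. The gene passed the filter through its higher signals on other arrays, and the size of its fold depends on the pseudocount. The mean signal of 1 ligand, taken without the pseudocount, was under 0.63 for 6 of the 58 probe sets called higher (Ccl7, Phlda1, Rtn4rl1, Anxa7, Stc1 and Cxcl3) and for 1 of the 122 called lower.

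Cxcl1 had signals of 16.4 and 1.82 under COR, 2.22 and 1.04 under CVZ, and 11.9 and 2.98 under vehicle. The ligands overlapped across experiments, and the difference was 2.84 in the first experiment and 0.76 in the second. Its fitted difference was 1.80 ± 0.31 (adjusted p = 0.00921), and the call was lost without COR 1 or without CVZ 1 (1.11 at the lowest, adjusted p up to 0.16). Ccl20, another chemokine, went the other way against vehicle and was not called between the ligands: 18.5 and 6.39 under COR, 23.7 and 10.6 under CVZ, and 1.85 and 1.09 under vehicle (difference −0.54, 95% interval −0.97 to −0.12, adjusted p = 0.337). Of the NF-kappaB feedback and adhesion genes, Ier3, an early response gene, was the 1 called of 20 (0.56, adjusted p = 0.0249).

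Outside the chemokines, the genes higher with COR included a growth factor, cardiac transcription factors and guidance receptors. Irx4, a homeobox factor of ventricular muscle, had signals of 18.1 and 20.6 under COR, 9.66 and 9.48 under CVZ, and 35.6 and 31.1 under vehicle. The 3 groups were separate, with COR in the middle, and the difference was 1.01 ± 0.11 (2.01-fold, adjusted p = 0.000292). Fgf18, a secreted growth factor, had 2.93 and 1.51 under COR, 1.12 and 0.379 under CVZ, and 4.67 and 2.65 under vehicle. In each experiment COR was again between vehicle and CVZ, and the difference was 1.57 (adjusted p = 0.00288). Phlda1, a pleckstrin-homology-like protein, had 0.635 and 0.575 under COR, and only 0.0711 and 0.067 under CVZ, against 1.68 and 1.14 under vehicle. Both CVZ signals were close to the pseudocount of 0.0696, so its difference of 2.28 (95% interval 1.30 to 3.26) depends on that constant, and the call was lost with the pseudocount at the 25th percentile and without COR 1, COR 2 or CVZ 1.

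Prox1, another homeobox factor, was higher with COR by 0.73, and Nrp1, a co-receptor for semaphorins and vascular endothelial growth factor, by 0.72. Sema6d, a semaphorin, differed by 0.78 and Rtn4rl1, of the Nogo receptor family, by 1.41. Gja1 and Gja5, the connexins of gap junctions between heart cells, were the 2 of 23 calcium handling and ion channel genes that were called. The list median was −0.0012, and 0.311% of all probe sets were called higher. Gja1 had 251 and 243 under COR, 220 and 157 under CVZ, and 279 and 261 under vehicle (0.41, adjusted p = 0.0323). Gja5 had 31.7 and 17.2 under COR, 23.2 and 11.6 under CVZ, and 27.7 and 15.8 under vehicle (0.51, adjusted p = 0.0186). Both connexin differences were small and neither call held without COR 1 or without COR 2. The remaining genes of the 15 largest positive differences were Adgra3, an adhesion G protein-coupled receptor (1.16), Tmcc3, Tbc1d10c, Ccdc88c, LOC100911508 and Zfp395 (0.88 to 0.95).

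**Figure D2:**
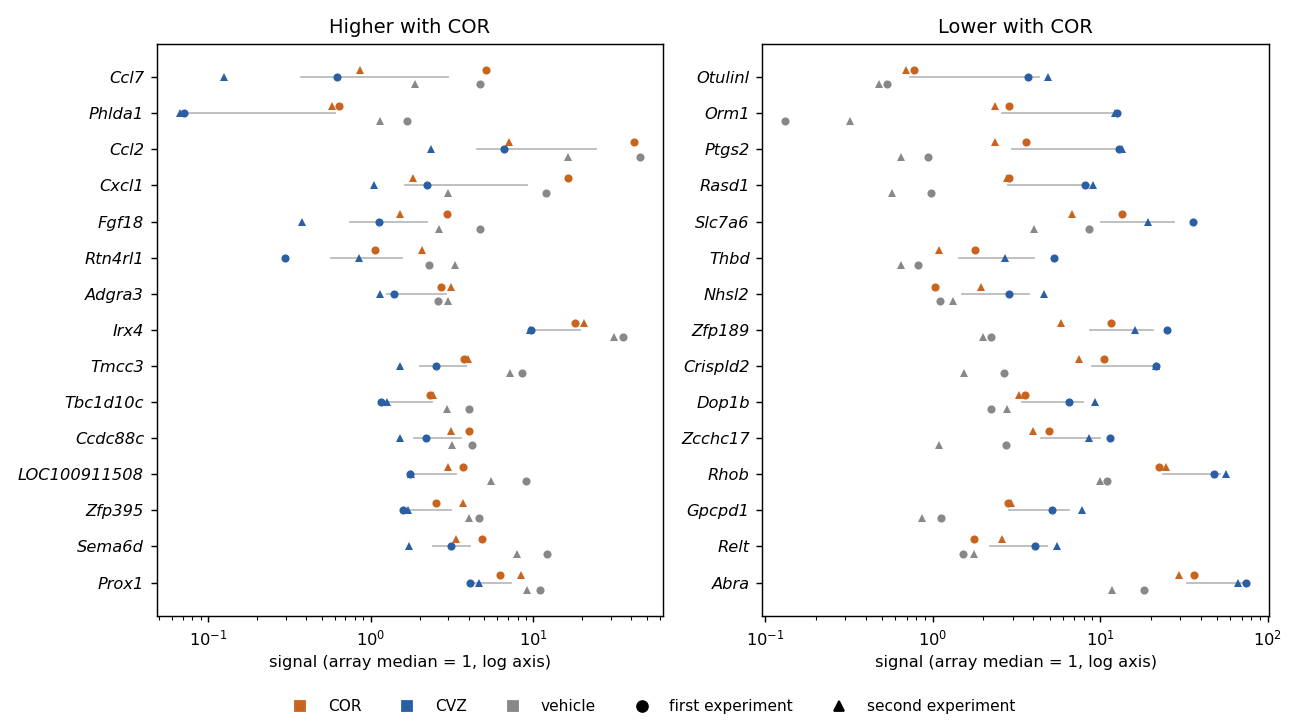
Signal on each COR (orange), CVZ (blue) and vehicle (grey) array, on a log axis with the array median as 1, of the 15 genes with the largest differences called in each direction; circles are the first experiment, triangles the second, and the grey line joins the COR and CVZ means. Ccl2 and Ccl7 show CVZ below both COR and vehicle in each experiment, and Orm1 and Ptgs2 show COR between vehicle and CVZ.

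The largest differences on the side lower with COR were in Otulinl, Orm1 and Ptgs2. Orm1, the acute phase protein alpha-1-acid glycoprotein, had signals of 2.85 and 2.35 under COR, 12.7 and 12.3 under CVZ, and 0.132 and 0.324 under vehicle. COR lay above vehicle and below CVZ in both experiments, and COR minus CVZ was −2.24 ± 0.35 (4.73-fold lower with COR, adjusted p = 0.00557). Ptgs2, the inducible cyclooxygenase that begins prostaglandin synthesis, had 3.62 and 2.37 under COR, 13.0 and 13.5 under CVZ, and 0.938 and 0.651 under vehicle. The order was the same, and the difference was −2.15 ± 0.29 (4.44-fold lower with COR, adjusted p = 0.00285). Otulinl, a relative of the deubiquitinase Otulin, had 0.773 and 0.690 under COR, 3.73 and 4.88 under CVZ, and 0.533 and 0.479 under vehicle. Here COR was close to vehicle (0.48, adjusted p = 0.68) and well below CVZ (−2.44 ± 0.37, adjusted p = 0.00485).

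Orm1 was the 1 of 13 acute phase genes called between the ligands, with a list median of −0.21. Ptgs2 and Ptgds, a prostaglandin D synthase (−0.65), were the 2 of 14 prostanoid genes called, with a list median of −0.06. Over all probe sets 0.655% were called lower. With 1 COR or CVZ array left out, 1 or 2 prostanoid genes were called. The call of Orm1 was lost without COR 2, CVZ 1 or CVZ 2 (adjusted p up to 0.133), and that of Otulinl without COR 2 or CVZ 2 (adjusted p up to 0.0854). The smallest differences in these fits were −1.95 for Orm1 and −2.24 for Otulinl. Crispld2, a secreted protein that binds bacterial lipopolysaccharide, had 10.5 and 7.48 under COR, 21.6 and 21.5 under CVZ, and 2.65 and 1.55 under vehicle (−1.27, adjusted p = 0.00422). Its call was lost without COR 2 or CVZ 2. Nhsl2, Zfp189, Dop1b, Zcchc17, Gpcpd1 and Relt, a receptor of the tumour necrosis factor family, were also among the 15 largest, at −1.31 to −1.12.

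Genes known to be raised by GR were lower with COR where they were called. Of 34 GR targets tested, 12 were lower with COR, 0 were higher and 22 were not called, with a list median of −0.51. In these arrays 28 of the 34 were lower with COR in both experiments and 0 were higher in both, where 27.7% and 27.1% of all probe sets were. Lower calls made up 0.655% of all probe sets. COR raised 25 of the 34 over vehicle (2.44% of all probe sets were called higher) and CVZ raised 29 (4.77%), with medians of 1.10 and 1.68, in comparisons that share the vehicle arrays. The list was drawn up with earlier results of these data known, so its direction is a description. Without COR 2, 2 members were called, and 5 were called without COR 1, CVZ 1 or CVZ 2.

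Fkbp5, a co-chaperone that restrains the receptor, had 26.6 and 28.2 under COR, 43.5 and 43.8 under CVZ, and 1.52 and 2.17 under vehicle. Both ligands were far above vehicle and COR was 1.59-fold below CVZ (−0.67, adjusted p = 0.0265). Rhob, a small GTPase of the actin cytoskeleton, had 22.5 and 24.8 under COR, 47.5 and 56.8 under CVZ, and 11.1 and 9.98 under vehicle. The 3 groups did not overlap, and the difference was −1.13 ± 0.12 (2.20-fold lower with COR, adjusted p = 0.000281). Rasd1, a Ras-like GTPase named for its induction by dexamethasone, had 2.84 and 2.77 under COR, 8.10 and 9.12 under CVZ, and 0.974 and 0.576 under vehicle. Its difference, −1.59, was the largest of the list.

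Sgk1, a kinase that regulates ion channels, differed by −1.08, and Pdk4, which shuts carbohydrate out of oxidation by inhibiting pyruvate dehydrogenase, also by −1.08. Glul, glutamine synthetase, differed by −0.72, Foxo3, a transcription factor of the atrophy programme, by −0.70, and Klf15, a regulator of amino acid use, by −0.59. Bcl6, a transcriptional repressor, differed by −0.59, Cdkn1a, a cell cycle inhibitor, by −0.52, Tiparp, an ADP-ribosyltransferase, by −0.69, and Tgm2, a transglutaminase, by −0.49. Among members not called, Klf9 differed by −0.40 (adjusted p = 0.0966), Sesn1 by −0.26 (95% interval −0.48 to −0.05) and Tsc22d3, which encodes GILZ, by −0.23 (−0.45 to −0.02).

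Some responsive genes had almost the same level under both ligands. Per1, a clock gene and GR target, had 2.69 and 5.50 under COR, 3.26 and 4.88 under CVZ, and 0.194 and 0.857 under vehicle. COR minus CVZ was −0.05 with a 95% interval of −0.63 to 0.53, while COR minus vehicle was 2.99 and CVZ minus vehicle 3.04. Rasgrp1, an activator of Ras, had 2.88 and 3.14 under COR, 3.06 and 3.23 under CVZ, and 0.502 and 0.399 under vehicle (−0.06, interval −0.61 to 0.49). Kdr, a receptor for vascular endothelial growth factor, had 15.3 and 13.0 under COR, 12.6 and 12.5 under CVZ, and 4.93 and 2.45 under vehicle (0.17, interval −0.23 to 0.57). These 3 genes were picked after their values were seen, and the sign of their small differences turned when single COR or CVZ arrays were left out.

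The receptors were not called. Nr3c1, which encodes GR, had 8.29 and 7.14 under COR, 6.27 and 6.04 under CVZ, and 11.6 and 9.54 under vehicle. COR was above CVZ in both experiments, by 0.32 with an interval of 0.06 to 0.58 (adjusted p = 0.365). Nr3c2, which encodes the mineralocorticoid receptor, had 2.31 and 2.48 under COR, 2.31 and 2.32 under CVZ, and 3.45 and 1.76 under vehicle (0.05, interval −0.46 to 0.55). Of the 18 receptors, chaperones and steroid-handling genes, 0 were called in limma (1 at an unadjusted p below 0.05), with a median of −0.01. Of 12 mineralocorticoid targets, 2 were lower with COR: Sgk1, which is also a GR target, and Atp1b1, a subunit of the sodium pump. Atp1b1 had 129 and 122 under COR, 185 and 151 under CVZ, and 148 and 118 under vehicle (−0.41, adjusted p = 0.0174). The list median was −0.16, and 0.655% of all probe sets were called lower. With 1 COR or CVZ array left out, 0 or 1 of the 12 were called.

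Abra and Tcap, genes of striated muscle, kept their call with any COR or CVZ array left out. Abra, an actin-binding protein, had 36.3 and 29.6 under COR, 74.1 and 66.8 under CVZ, and 18.2 and 11.8 under vehicle. Tcap, the titin cap of the Z-disc, had 32.8 and 28.7 under COR, 73.2 and 56.6 under CVZ, and 13.0 and 10.8 under vehicle. For both genes COR lay between vehicle and CVZ without overlap, and the differences were −1.10 ± 0.11 and −1.07 ± 0.11 (adjusted p = 0.000281 for each). Tcap was the 1 of 18 cardiomyocyte markers called, and the list median was −0.06. COR was below CVZ in both experiments for 11 of the 18 and above it in both for 0, where 27.7% and 27.1% of all probe sets were. At an unadjusted p below 0.05 the limma count was 7 of the 18, against 1793 of all 18625 probe sets. Egr1, an immediate early transcription factor, had 52.9 and 22 under COR, 95.2 and 35.6 under CVZ, and 12.4 and 4.92 under vehicle. The ligands overlapped across experiments since signals in the first experiment were higher in all 3 groups, and within experiments the differences were −0.85 and −0.69.

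Several amino acid transporter genes were lower with COR. Slc7a6, Slc7a5 and Slc3a2 encode light chains and the shared heavy chain of heterodimeric amino acid transporters, and with Glul they were the 4 called of 26 amino acid genes, with 0 higher and a list median of −0.14 (0.655% of all probe sets were called lower), and 1 or 2 were called with a COR or CVZ array left out. Slc7a6 had 13.5 and 6.83 under COR, 35.7 and 19.4 under CVZ, and 8.53 and 4.02 under vehicle. COR minus vehicle was 0.71, smaller than the gap to CVZ, and the difference was −1.45 ± 0.16 (2.73-fold lower with COR, adjusted p = 0.000522). Slc3a2 had 26.1 and 19.1 under COR, 39.1 and 37.6 under CVZ, and 23.2 and 18.6 under vehicle (−0.78, adjusted p = 0.0164). Slc7a5 had 3.54 and 2.57 under COR, 5.98 and 4.87 under CVZ, and 2.39 and 2.25 under vehicle (−0.82, adjusted p = 0.0265).

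The clotting genes F3 and Thbd were both lower with COR. Their list, vascular growth and clotting, had a median of −0.09, with 17 of 20 genes not called. Over all probe sets 0.655% were called lower and 0.311% higher. F3, tissue factor, which starts coagulation, had 11.7 and 12.1 under COR, 17.9 and 20.2 under CVZ, and 1.55 and 1.45 under vehicle (−0.67, adjusted p = 0.0304). Thbd, thrombomodulin, which restrains thrombin, had 1.79 and 1.09 under COR, 5.33 and 2.70 under CVZ, and 0.815 and 0.651 under vehicle (−1.40, adjusted p = 0.0289). Both calls were lost without any 1 of the 4 COR and CVZ arrays. With Nrp1 they were the 3 called of 20 genes of vascular growth and clotting, and 0 or 1 was called with such an array left out.

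Among sterol synthesis genes the calls were on the side higher with COR. Of 21 tested, 2 were higher with COR, 0 lower and 19 not called, with a list median of 0.30. Higher calls made up 0.311% of all probe sets. COR was above CVZ in both experiments for 16 of the 21 and below it in both for 2, where 27.1% and 27.7% of all probe sets were. Msmo1, a methylsterol oxidase of cholesterol synthesis, had 39.4 and 22.1 under COR, 26.1 and 13.8 under CVZ, and 42.6 and 25.7 under vehicle (0.64, adjusted p = 0.00403). Insig1, which restrains the pathway's transcription factor, had 28.6 and 19.0 under COR, 17.7 and 14.5 under CVZ, and 19.5 and 17.0 under vehicle (0.54, adjusted p = 0.0344). For Msmo1 it was CVZ that departed from vehicle, while for Insig1 neither ligand was called against vehicle. Of the 4 other members with the highest mean over all arrays, Idi1 differed by 0.36, Fdft1 by 0.38, and Fdps and Cyp51 by 0.25 each, all enzymes of the pathway. Without COR 1, COR 2 or CVZ 2 no member was called in limma, and without CVZ 1 there was 1.

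**Figure D3:**
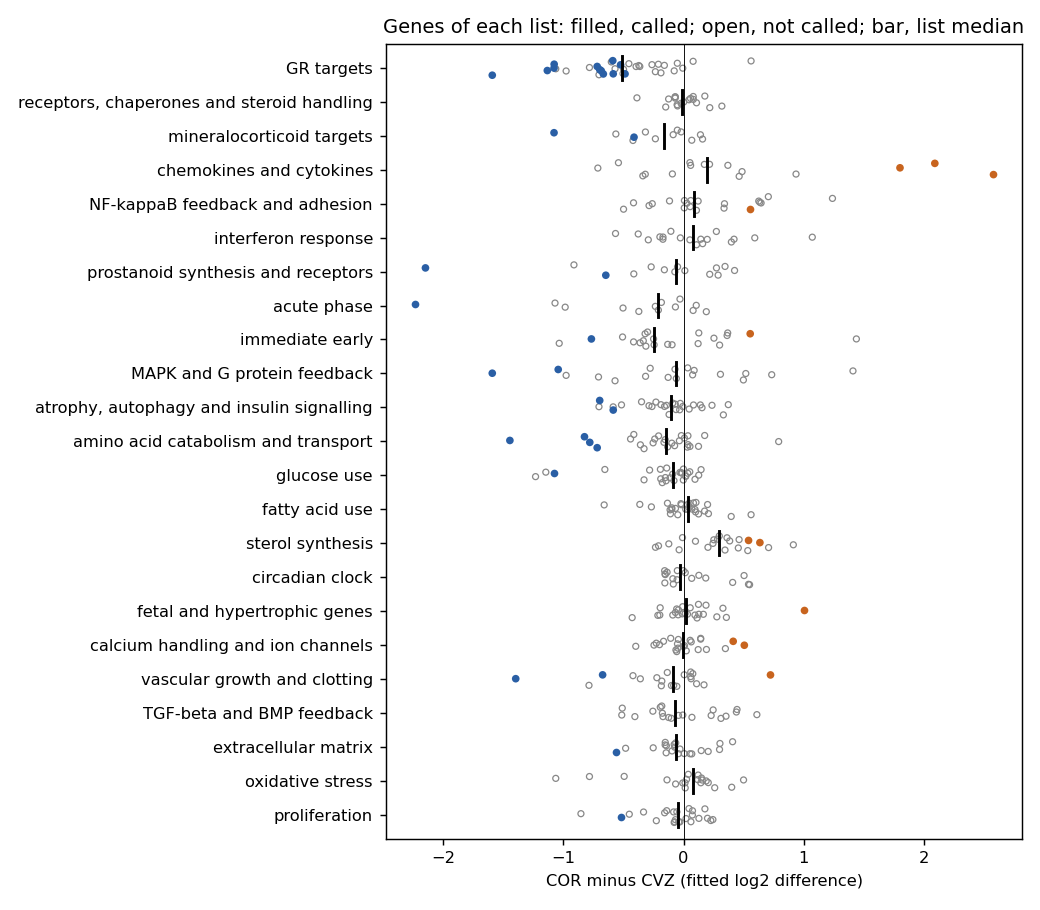
Fitted COR minus CVZ on the log2 scale (horizontal axis) of every tested gene in each of 23 lists; filled points were called (orange higher, blue lower with COR), open points were not, and the bar is the list median. The GR targets lie mostly left of 0 with a median of −0.51, and the sterol synthesis genes mostly right of it with a median of 0.30.

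For the other lists the calls were few, as they were over all probe sets (0.966% called), and nothing is read from these counts about the programmes. In limma 0 members were called among 28 genes of fatty acid use, 18 clock genes, 18 interferon response genes, 20 genes of TGF-beta and BMP feedback and 20 of oxidative stress, and the list medians were between −0.07 and 0.08. At an unadjusted p below 0.05 the counts in these lists were 2, 3, 3, 4 and 4, in that order, and 1 oxidative stress gene was called without COR 1 and without CVZ 2. Single calls were made among 27 genes of glucose use (Pdk4), 24 fetal and hypertrophic genes (Irx4), 24 proliferation genes (Cdkn1a) and 21 matrix genes (Adamts1, a matrix protease, −0.56). Of 26 atrophy, autophagy and insulin signalling genes, Klf15 and Foxo3 were lower with COR, and 0 or 1 was called with a COR or CVZ array left out. Over all probe sets not called, the 95% interval extended by a median of 0.42 on either side of the difference.

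Markers of other cell types were not called between COR and CVZ: 0 of 12 for fibroblasts, 0 of 9 for smooth muscle, 0 of 8 for endothelium, 0 of 9 for macrophages, 0 of 6 for epicardium, 0 of 3 for Schwann cells and 0 of 2 for erythroid cells. At an unadjusted p below 0.05 the limma counts were 2, 1, 1, 2, 0, 1 and 0, in that order, against 1793 of all 18625 probe sets. Calls made up 0.966% of all probe sets, so nothing is read from these counts about the make-up of the cultures. Summed fibroblast marker signal was 581 and 304 under COR, 618 and 307 under CVZ, and 616 and 300.1 under vehicle, so it differed between experiments and little between ligands. Macrophage markers summed to 21.7 and 17.5 under COR, 26.1 and 18.4 under CVZ, and 23.4 and 18.6 under vehicle. Endothelial markers, which include Kdr, summed to 38.1 and 25.2 under COR, 32.6 and 25.7 under CVZ, and 22.2 and 14.4 under vehicle. In bulk RNA, fewer cells of a type and less RNA per cell cannot be told apart.

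For most of the probe sets that separated the ligands, COR lay between vehicle and CVZ. Against vehicle 632 probe sets were called under COR (3.39% of those tested, 454 higher, 2.44%, and 178 lower, 0.956%) and 1483 under CVZ (7.96%, 889 higher, 4.77%, and 594 lower, 3.19%). The comparisons share arrays with COR minus CVZ and with each other, so what follows describes the called probe sets and tests nothing further. The 58 called higher with COR had a median COR minus vehicle of −0.54 and a median CVZ minus vehicle of −1.34. Of them, 26 were called lower than vehicle under both ligands, 28 lower under CVZ and not called under COR, and 4 in neither. Of the 122 called lower with COR, 67 were called higher than vehicle under both ligands, 47 higher under CVZ and not called under COR, 3 lower under COR and not called under CVZ, 1 in opposite directions and 4 in neither, with medians of 0.56 for COR and 1.53 for CVZ.

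The COR mean lay between the vehicle and CVZ means for 50 of the 58 and 104 of the 122. The vehicle mean lay in the middle for 8 of the 58 and 17 of the 122, and the CVZ mean for 1 of the 122. Rgs2, which ends signalling by G proteins, was the 1 gene called in opposite directions against vehicle. It had 18 and 10.0 under COR, 40.1 and 19.3 under CVZ, and 30.2 and 14.8 under vehicle. In each experiment COR was the lowest and CVZ the highest of the 3. COR minus vehicle was −0.65 (adjusted p = 0.0017), CVZ minus vehicle 0.40 (adjusted p = 0.032), and COR minus CVZ −1.04 ± 0.11 (adjusted p = 0.000281). The other called probe set of Rgs2 gave −1.08 for COR minus CVZ. Against vehicle it was called lower under COR and not called under CVZ, so the opposite calls rest on 1 probe set.

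**Figure D4:**
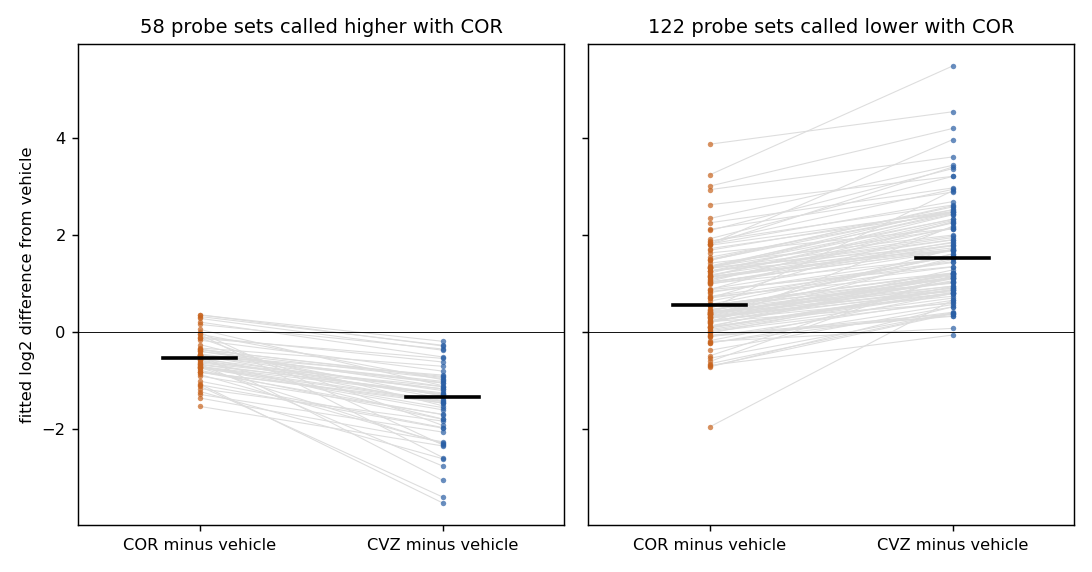
Fitted log2 difference from vehicle under COR (orange) and CVZ (blue) of the 58 probe sets called higher with COR (left) and the 122 called lower (right); a line joins the 2 values of a probe set and the bar is the median. The medians are −0.54 and −1.34 on the left and 0.56 and 1.53 on the right.

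After RU486 the median difference between the ligands at these probe sets was near that of the whole array. COR plus RU486 minus CVZ plus RU486 had a median of 0.055 over the 58, with 39 in the same direction as without RU486, and of 0.058 over the 122, with 46 in the same direction. The median over all probe sets tested was 0.0489, with 59.8% above 0. These are single arrays of the second experiment and carry no test of their own. The probe sets were chosen for their difference on the arrays without RU486, so smaller differences with RU486 follow in part from that choice. Their inferred medians before division, 37.7 for COR plus RU486 and 35.9 for CVZ plus RU486, were above those of all arrays without RU486, and the part of this was not tested. Values ranged from −0.33 to 1.41 over the 58 and from −1.62 to 1.84 over the 122.

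Ptgs2 had a signal of 0.83 under COR plus RU486 and 0.73 under CVZ plus RU486, and Rhob had 13.3 and 12.9, in the same order. Irx4 had 32.5 under COR plus RU486 and 33.2 under CVZ plus RU486. In all 3 the ligands lay close together. Ccl2 kept a difference in the same direction, with 12.2 under COR plus RU486 and 8.18 under CVZ plus RU486, as did Ccl7 with 1.19 and 0.638. Msmo1 had 29.0 under COR plus RU486 and 17.8 under CVZ plus RU486, a difference of 0.70 against 0.68 without RU486 in the same experiment. The sterol synthesis list had a median of 0.22 with RU486, with 15 of 21 members above 0 and values from −0.66 to 0.70. The GR targets had a median of 0.06, with 22 of 34 above 0. Over all probe sets tested 59.8% were above 0.

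Whether RU486 changed the difference between the ligands was tested as an interaction across all arrays. In limma 0 of 18625 probe sets were called (0.0%), with 952 at an unadjusted p below 0.05 and a lowest adjusted p of 0.0653. For Rhob the interaction was 1.18 ± 0.20 and for Irx4 −1.04 ± 0.19 (adjusted p = 0.0981 for each). For Msmo1 it was 0.07 ± 0.16.

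**Figure D5:**
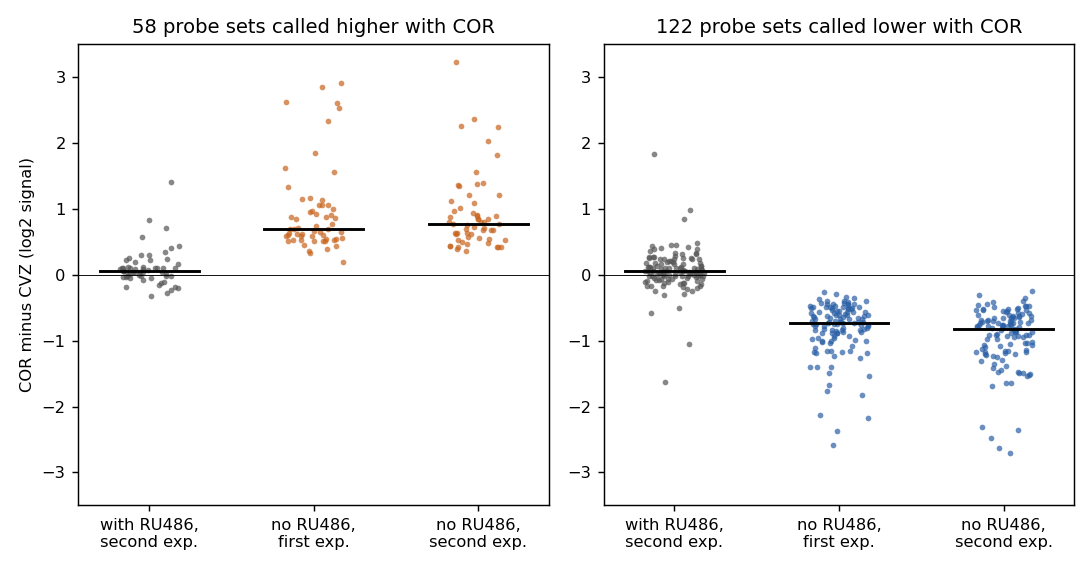
COR minus CVZ in log2 signal with RU486 (grey, second experiment) and without RU486 in the first and second experiment (orange or blue), for the 58 probe sets called higher with COR (left) and the 122 called lower (right); bars are medians. With RU486 the medians are 0.055 and 0.058, and without it 0.69 and 0.76 on the left and −0.73 and −0.82 on the right. The probe sets were chosen for their difference without RU486.

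Probe sets of a gene did not always give the same answer. There were 14 genes with several called probe sets, all of the same sign, such as Dyrk2, a kinase, with 4 between −0.97 and −0.79, and Pdk4 with −1.08 and −0.93. Another 14 genes were called only by a dimmer probe set while the brightest was not called: Anxa7, Stc1, Cxcl3, Myl2, Rita1, Rab3a, Sox4, Idi1, Cited2, Timp3, Irf9, Cyth1, Hpcal1 and Cry2. For Cxcl3, a neutrophil chemokine, the 2 probe sets pointed in opposite directions, 2.32 and −0.71 for the brightest. For Myl2, the ventricular myosin light chain, the dim probe set gave 1.38 and the brightest −0.22 (adjusted p = 0.194). These 14 genes are counted among the called probe sets and not among the 123 genes. Some genes called by their brightest probe set had a dimmer one that limma did not call. Fkbp5 (−0.70, adjusted p = 0.161), Klf15 (−0.60, 0.0795), Cdkn1a (−0.35, 0.61) and Gja5 (0.45, 0.551) kept their direction there. So did Glul at its other probe sets (−0.60, 0.0969, and −0.56, 0.109) and Atp1b1 (−0.24, 0.195). Gpcpd1 (−0.93, 0.193), Nhsl2 (−0.69, 0.682) and Adgra3 (0.43, 0.869) also kept the direction of the fitted difference. For Irx4 the dimmer probe set gave −0.37 (adjusted p = 0.929), opposite to the brightest. Its signals were low, 0.0431 and 0.955 under COR and 0.175 and 0.719 under CVZ. Dyrk2 and the genes of this paragraph that no list holds were named after their values were seen.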

How the data were processed

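Per the labels the arrays were processed with MAS5. The deposited file holds 1 intensity per probe set, not on a log scale, and its values show that the authors divided each array by its own median. Array number, not depth, sets the precision. Here 57 control probe sets were set aside, 0.0696 (the 10th percentile) was added, and log2 was taken, which understates changes of dim genes. The 18625 probe sets whose average log2 exceeded the 40th percentile were tested. Of 31099 probe sets, 20832 had 1 gene in the array annotation and are named, 436 had several and 9831 none.

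All 12 arrays in 8 groups were fitted in limma 3.58.1 (R 4.3.3), using lmFit, eBayes with trend, and the experiment as a block. Calls had a Benjamini-Hochberg adjusted p below 0.05. Standard errors and 95% intervals rest on 3 residual and 12.2 prior degrees of freedom, hence mainly on variance shared by all probe sets, and groups of 1 array borrow their spread from the rest. Whether the experiments were separate cultures is not stated, so the spread behind each p-value may be technical. The labels number the experiments, and deviations from group means correlated at 0.512 to 0.567 between groups, so arrays of an experiment were paired. Replicates correlated at 0.946 to 0.950, with 0 identical values.

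A gene was represented by its tested probe set of highest mean. Named were the 15 largest called differences in each direction, called members and the 4 brightest others of each list, Nr3c1 and Nr3c2, genes called in opposite directions against vehicle, and 2 on each side of the threshold; others are marked as picked later. The genes and the 31 lists were chosen with earlier results of these data known. The fit was also run on simulated data drawn from its own variance estimates. Such data cannot show how the real calls depend on the block and the trend. Alternatives were other pseudocounts, filters and scalings, no block, no trend, fewer arrays, and each array left out.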

Additional observations from a re-analysis of the deposited data

How the results depend on the processing

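The 3 ways of scaling the arrays and the 3 pseudocounts gave 180 to 221 calls between COR and CVZ, and 117 of the 123 called genes kept their call under both other scalings. With no filter on low values 106 probe sets were called (34 higher, 72 lower) and 77 of the 123 genes kept their call. With no replicate block 0 were called, and with no mean-variance trend 0. With the 4 COR and CVZ arrays alone, which leave a single residual degree of freedom, 623 were called (192 and 431). Leaving out 1 array gave 24 to 236 calls, 6 to 75 of them higher and 18 to 163 lower. COR minus vehicle, 632 calls, gave 41 with no replicate block (41 higher, 0 lower), 117 without the trend (109 and 8), 271 lower after trimmed-mean scaling, and 338 to 692 with 1 array left out (255 to 487 higher, 59 to 205 lower, the lowest without vehicle 1). CVZ minus vehicle, 1483 calls, gave 215 with no replicate block (179 and 36), 646 without the trend (441 and 205), and 1015 to 1553 with 1 array left out (590 to 917 higher, 277 to 636 lower). The interaction, 0 calls, gave 1 with the pseudocount at the 5th percentile (1 higher), 12 with the filter at the 60th percentile (10 and 2), and 0 to 14 with 1 array left out (0 to 13 higher, 0 to 2 lower). The 74 probe sets at least 2-fold apart the same way in both experiments became 33 with the pseudocount at the 25th percentile, 866 with no filter and 20 with the filter at the 60th percentile. With 1 COR or CVZ array left out, Per1 ranged from −0.44 to 0.34, with 0.0399 without COR 2 and 0.335 without CVZ 1. Rasgrp1 ranged from −0.14 to 0.0238, Kdr from −0.0538 to 0.40, and Nr3c2 from −0.182 to 0.27, with −0.119 without CVZ 1. No called gene changed sign under any setting run. The causes were not tested. The 2-fold count cannot be made with a COR or CVZ array left out, and vehicle and RU486 comparisons cannot be made without those arrays.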
